A study of Mus musculus with 6 samples.

Results

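The genes described here are 10 nuclear genes that encode chaperones and proteases of the mitochondrion, Hspd1, Hspe1, Hspa9, Trap1, Lonp1, Clpp, Clpx, Afg3l2, Spg7 and Htra2. They were chosen by symbol, through the Ensembl identifiers of the GRCm38 annotation, and each matched 1 of the 55335 identifiers measured. All 10 passed the filter on low values, in both groups, and belong to the 12639 genes tested. Expression was measured by stranded mRNA sequencing in 6 libraries of bEnd.3 cells, a wild-type mouse brain endothelial line immortalised with a viral oncogene. The 3 control libraries came from cells given 100 µl of culture medium alone. The other 3 came from cells that received astrocyte mitochondria, prepared from primary cultures of mice and suspended in 100 µl of culture medium. Cells were collected after 24 h. The mitochondria are the only difference between the groups that the labels give. The comparison asks how cells of this line respond to mitochondria from astrocytes. The values below describe transcripts for mitochondrial protein upkeep at 24 h. The labels do not state separate cultures for the libraries within a group, so the spread behind each p-value may be technical.

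Most mitochondrial proteins are made in the cytosol and enter the matrix unfolded. There the HSP70 protein encoded by Hspa9 binds them as they arrive, and the chaperonin formed by Hspd1 with its lid Hspe1 encloses them while they fold. Proteins that fail to fold, and subunits left without a partner, are degraded by ATP-driven proteases, of which Lonp1 and the Clpp-Clpx complex work in the matrix and the m-AAA protease of Afg3l2 and Spg7 in the inner membrane. Stress inside mitochondria can raise the transcription of several of these genes, a programme called the mitochondrial unfolded protein response, in which the factors Atf5, Atf4 and Ddit3 (CHOP) have been implicated.

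Hspd1 and Hspe1 lie head to head on chromosome 1, and 1 short stretch between their start sites is shown because it can serve both genes. RefSeq (GRCm38.p6) places a start of Hspd1, read to the left, at 55087932 and the start of Hspe1, read to the right, at 55088148, with 215 bases between them. The stretch below, chr1:55088051-55088079 on the plus strand, holds a heat shock element, the binding motif of the heat shock factors, marked by capitals. It also lies in an exon of a longer annotated Hspd1 transcript.
Hspd1 and Hspe1: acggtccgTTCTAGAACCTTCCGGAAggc
The capitals span 18 bases with 4 alternating TTC and GAA units. The motif of 3 units, TTCNNGAA followed after 2 further bases by TTC, was searched on both strands and found in 0.60% of 32817 RefSeq promoter windows of 300 bases, 250 before and 50 after each start. TTCNNGAA alone was in 8.51% of windows and was also in that of Clpp.

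The regions upstream of Trap1 and Lonp1 are shown because Trap1 had the largest difference between groups and Lonp1 shares its motif, the core of the cyclic AMP response element TGACGT, in capitals with any overlapping copy on the other strand. The stretches are chr16:4077828-4078060 and chr17:56626904-56627153, both on the minus strand of GRCm38.p6.
Trap1: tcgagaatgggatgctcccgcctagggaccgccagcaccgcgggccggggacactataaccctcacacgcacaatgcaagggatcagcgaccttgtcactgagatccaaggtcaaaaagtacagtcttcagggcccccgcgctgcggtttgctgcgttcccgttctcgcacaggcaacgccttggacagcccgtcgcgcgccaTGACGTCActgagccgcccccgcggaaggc
Lonp1: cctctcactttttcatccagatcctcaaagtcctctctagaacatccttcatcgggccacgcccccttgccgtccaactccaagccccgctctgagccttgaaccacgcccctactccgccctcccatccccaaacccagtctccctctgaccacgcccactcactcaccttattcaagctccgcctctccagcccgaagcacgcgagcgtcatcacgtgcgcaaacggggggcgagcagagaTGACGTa
TGACGT, on either strand, was in 7.51% of all windows. TGATGNAA, a form of the C/EBP-ATF response element, was in 3.97% of all windows and in no window of the 7 members with an entry. The NRF1 core GCATGCGC, in 2.71% of all windows, was in that of Clpx, and CCAAT, in 37.39%, was in those of Clpx and of the longer Hspd1 transcript. The Spg7 window held none of the motifs. It was set on a start at 123065508, inside the gene as annotated from 123062942. The region before that first annotated position was not searched. Hspa9, Afg3l2 and Htra2 are named only. A match describes the letters of a window and shows no binding.

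After 24 h with mitochondria, the 10 genes stood close to their control levels. None passed the limma threshold, an adjusted p under 0.05 (Benjamini-Hochberg, over the 12639 genes), which 1.12% of all genes passed, 0.467% higher and 0.649% lower with mitochondria. At an unadjusted p under 0.05 there was 1 of the 10, Trap1, where 13.9% of all genes reached that level. All 10 log2 changes were within 0.2 of 0, as were 82.3% of all genes, and their median was −0.038 beside −0.006 over all genes tested. Every log2 change given is the mean of log2(FPKM + 1) with mitochondria less that of the controls, where FPKM counts fragments relative to transcript length and library depth. Of the 10, 3 had positive and 7 had negative changes. The 2 groups did not overlap for 3 of the 10, higher with mitochondria for Trap1 and Afg3l2 and lower for Hspa9, beside 21.0% of all genes.

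**Figure D1:**
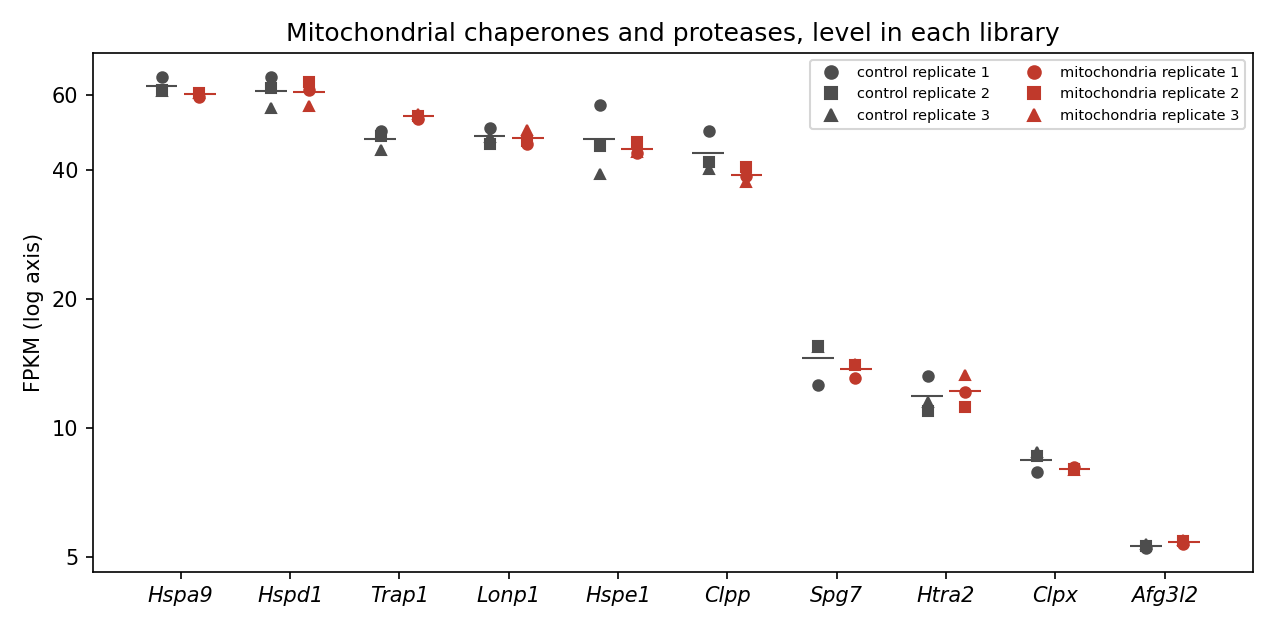
Level of each of the 10 genes in each library, in FPKM on a log axis, with grey symbols for control, red for mitochondria, a shape for each replicate number and a line for each group mean. The genes fall into an upper set from Hspa9 to Clpp, at 37.6 to 66.1 FPKM, and a lower set from Spg7 to Afg3l2, at 5.24 to 15.6 FPKM, and the 2 groups lie close together in both.

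The 2 sets differed far more from each other than the groups did. Over the 6 libraries the mean level, which FPKM allows to be compared between genes, was 61.5 FPKM for Hspa9 and 61.0 FPKM for Hspd1, whose ranges overlapped. Trap1 followed at 50.4 FPKM, Lonp1 at 47.7, Hspe1 at 46.0 and Clpp at 41.4 FPKM, and in each step from Trap1 to Clpp the ranges of neighbours overlapped. The next step was the widest. Spg7 stood at 14.2 FPKM and Htra2 at 12.1 FPKM, with overlapping ranges, then Clpx at 8.24 and Afg3l2 at 5.37 FPKM, each below its neighbour in all 6 libraries. Hspa9 was above 94.1% of the genes tested in level and Afg3l2 above 40.3%. The soluble chaperones and the matrix peptidases Lonp1 and Clpp thus ranked high, and both subunits of the m-AAA protease and the ATPase partner of Clpp ranked lower.

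Among the chaperones, Trap1, the HSP90 of mitochondria (ENSMUSG00000005981, chromosome 16, 4039971 to 4077827), differed most. It was at 49.3, 48.0 and 44.6 FPKM in control replicates 1 to 3 and at 52.6, 53.6 and 54.2 FPKM in mitochondria replicates 1 to 3. Every mitochondria library was above every control library. The means were 47.3 ± 2.42 and 53.5 ± 0.799 FPKM (SD, n = 3 in each group), a log2 change of 0.17 (SE 0.054, 95% interval 0.046 to 0.30). It had an unadjusted p of 0.0149 and an adjusted p of 0.221 in limma, so it did not pass. With each library left out in turn the change was 0.13 to 0.20. Its direction could not reverse there, since the groups did not overlap.

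Hspd1, the HSP60 chaperonin (ENSMUSG00000025980, chromosome 1, 55077835 to 55088243), was at 65.9, 62.1 and 55.7 FPKM in the controls and at 61.6, 64.3 and 56.6 FPKM with mitochondria. The groups overlapped throughout, and the third replicate was the lowest in each. Its log2 change was −0.008 (95% interval −0.20 to 0.18, limma adjusted p = 0.979). On that scale the interval runs from 12.7% lower to 13.3% higher, so a larger rise lies outside it. Hspe1, which encodes the HSP10 lid (ENSMUSG00000073676, chromosome 1, 55088132 to 55091307), was at 56.8, 45.5 and 39.2 FPKM in the controls. With mitochondria it was at 43.8, 46.6 and 44.0 FPKM, inside the control range. Its log2 change was −0.057 (95% interval −0.36 to 0.24, limma adjusted p = 0.886), the widest interval of the 10, and without control replicate 1 it was 0.082.

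Some reads of the chaperonin genes cannot be placed with certainty. Of the 31-base words of Hspd1 transcripts, 50.1% also occur in transcripts of other genes, 46.5% in the processed copy Hspd1-ps3. The listed copies of Hspd1 summed to 2.41 to 3.50 FPKM, little beside the parent gene. For Hspe1 the share was 24.8%, and 23.1% of its words occur in AC117239.2, a gene whose level was not examined. The listed copies of Hspe1, which do not include that gene, summed to at most 0.416 FPKM. Hspd1 and Hspe1 also share 112 exonic bases on opposite strands, 4.2% and 7.6% of their exonic lengths. How strand entered the authors' quantification is not given here, so reads in that overlap cannot be told apart.

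Hspa9, the mitochondrial HSP70 known as mortalin (ENSMUSG00000024359, chromosome 18, 34937414 to 34954357), was at 66.1, 61.6 and 61.1 FPKM in the controls and at 59.3, 60.5 and 60.4 FPKM with mitochondria. All 3 mitochondria libraries lay below the controls, by a gap much smaller than the spread among the controls. The log2 change was −0.066 (95% interval −0.19 to 0.055, limma adjusted p = 0.629), and without control replicate 1 it was −0.030. Of its 31-base words, 9.7% also occur in Hspa9-ps1, which reached 0.0664 FPKM at most.

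Among the matrix proteases, Lonp1 (ENSMUSG00000041168, chromosome 17, 56614297 to 56626887), which degrades oxidised and misfolded proteins, was at 50.2, 46.0 and 47.9 FPKM in the controls and at 45.9, 46.8 and 49.6 FPKM with mitochondria. The groups covered almost the same range. The log2 change was −0.018 (95% interval −0.15 to 0.12, limma adjusted p = 0.929), and 0.0% of its 31-base words occur in other genes.

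Clpp, the peptidase barrel of the ClpXP protease (ENSMUSG00000002660, chromosome 17, 56990305 to 56996188), was at 49.4, 41.7 and 40.3 FPKM in the controls and at 38.8, 40.6 and 37.6 FPKM with mitochondria. Control replicate 1 stood above the other 5 libraries, and the groups overlapped through control replicate 3 and mitochondria replicate 2. The log2 change was −0.16 (95% interval −0.36 to 0.041, limma adjusted p = 0.459). Without control replicate 1 it was −0.070. Clpx, the ATPase that unfolds substrates for Clpp (ENSMUSG00000015357, chromosome 9, 65294260 to 65330658), was at 7.92, 8.60 and 8.79 FPKM in the controls and at 8.11, 8.04 and 7.98 FPKM with mitochondria. Its 3 mitochondria values lay inside the control range, with a log2 change of −0.060 (95% interval −0.20 to 0.080, limma adjusted p = 0.712).

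In the inner membrane, Afg3l2 (ENSMUSG00000024527, chromosome 18, 67404764 to 67449172), the m-AAA subunit that can also form a complex alone, was at 5.24, 5.32 and 5.36 FPKM in the controls and at 5.37, 5.46 and 5.47 FPKM with mitochondria. The groups did not overlap, yet the lowest mitochondria library and the highest control library nearly touched. Its log2 change was 0.029 (95% interval −0.097 to 0.15, limma adjusted p = 0.864). Spg7, which encodes the partner subunit paraplegin (ENSMUSG00000000738, chromosome 8, 123062942 to 123097760), was at 12.6, 15.6 and 15.4 FPKM in the controls and at 13.1, 14.1 and 14.1 FPKM with mitochondria. Here control replicate 1 was the lowest of all 6 libraries, and the log2 change of −0.069 (limma adjusted p = 0.786) became −0.16 without it. Afg3l1, a further m-AAA subunit gene that is active in the mouse, had group means of 9.77 ± 0.974 and 10.5 ± 0.826 FPKM (SD, n = 3) and overlapped between groups.

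Htra2, a serine protease of the space between the membranes (ENSMUSG00000068329, chromosome 6, 83051266 to 83055273), was at 13.2, 10.97 and 11.5 FPKM in the controls and at 12.1, 11.2 and 13.3 FPKM with mitochondria. The groups overlapped, with a log2 change of 0.035 (95% interval −0.18 to 0.25, limma adjusted p = 0.906). Of its exonic bases, 25.6% overlap exons of Aup1 and 18.2% exons of Loxl3, both on the opposite strand, so its level is uncertain without strand.

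**Figure D2:**
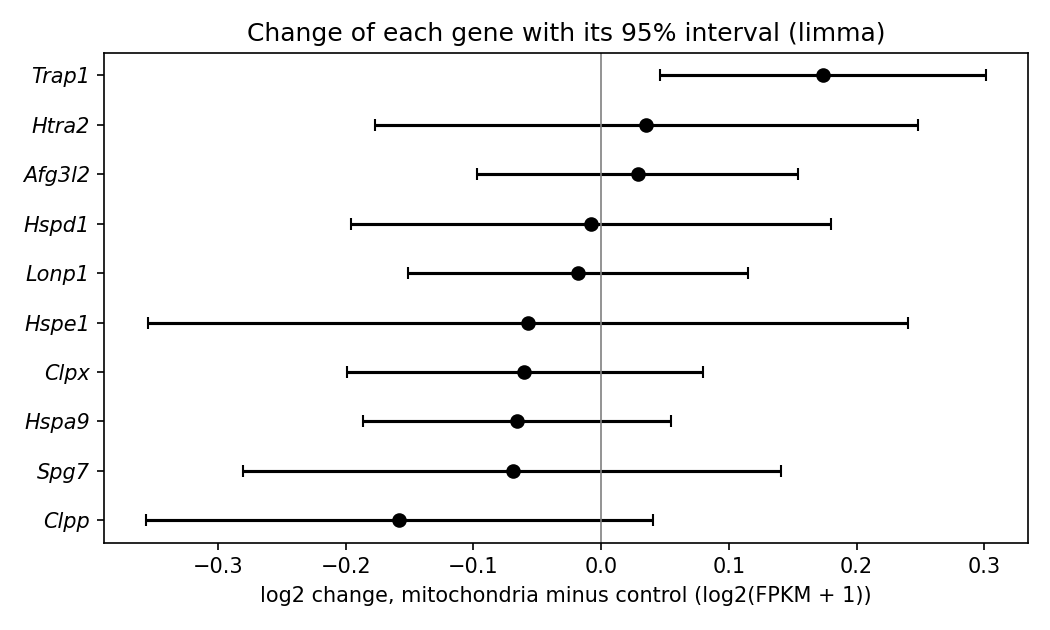
Log2 change of each of the 10 genes, mitochondria less control in log2(FPKM + 1), with its 95% interval from limma. The interval of Trap1, 0.046 to 0.30, is the single one of the 10 that leaves out 0 before adjustment for the number of genes tested.

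The controls were less alike than the mitochondria libraries in every gene of the set. The coefficient of variation was larger in the controls for 10 of 10 genes, beside 64.5% of all genes tested. It was 18.9% in the controls and 3.51% with mitochondria for Hspe1, and 5.43% and 0.813% for Clpx. By the depth estimate given below, the counting error of 1 library on the coding bases was up to 6.3% for Hspe1 and 6.2% for Clpx. Both mitochondria values, and the control value of Clpx, lie below that and cannot be read as precision. The same holds for Hspa9, Trap1 and Afg3l2, the genes whose groups did not overlap. With mitochondria their values were 1.09%, 1.49% and 1.03%, beside counting errors of up to 2.1%, 2.4% and 6.8%. The control value of Afg3l2 was also below its counting error, and the mitochondria values of Clpp and Spg7 were just below theirs. Control replicate 1 was the highest control for 7 genes, beside 41.3% of all genes, and the lowest for the other 3, Clpx, Spg7 and Afg3l2, beside 32.2% of all genes. The summed level of the 10 genes was 377, 345 and 330 FPKM in control replicates 1 to 3 and 341, 351 and 343 FPKM in mitochondria replicates 1 to 3, so the mitochondria libraries lay inside the control range. The 4 chaperones summed to 238, 217 and 201 FPKM in the controls and to 217, 225 and 215 FPKM with mitochondria. The 6 proteases summed to 138.6, 128.2 and 129.2 FPKM in the controls and to 123.4, 126.2 and 128.0 FPKM with mitochondria. The protease sum was lower in every mitochondria library than in every control, narrowly so between mitochondria replicate 3 and control replicate 2. Clpp had the largest difference in it, with means of 43.8 and 39.0 FPKM. Lonp1, Clpx and Spg7 had lower means by less, and Afg3l2 and Htra2 had higher means with mitochondria. The sums were not tested. The depth implied by the FPKM was lowest in control replicate 1, 17000000 fragments, and its part in these values was not tested.

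The ratios of partner genes overlapped between the groups. The level of Hspe1 relative to Hspd1 was 0.862, 0.733 and 0.704 in the controls and 0.712, 0.725 and 0.777 with mitochondria. An exact two-sided permutation test of the log2 ratio gave p = 0.7, where 3 against 3 libraries cannot go below 0.1. Clpp exceeded Clpx 6.24, 4.85 and 4.58 times in the controls and 4.78, 5.05 and 4.71 times with mitochondria (exact permutation p = 0.8). Spg7 exceeded Afg3l2 2.40, 2.93 and 2.88 times in the controls and 2.44, 2.58 and 2.58 times with mitochondria (exact permutation p = 0.4). The 3 p-values were not adjusted, since none can pass. In each of the 3 ratios control replicate 1 was the library farthest from the other controls. Without it the first 2 differences changed sign, to 0.038 and 0.040 on the log2 scale, while that of Spg7 to Afg3l2 went from −0.11 to −0.20.

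**Figure D3:**
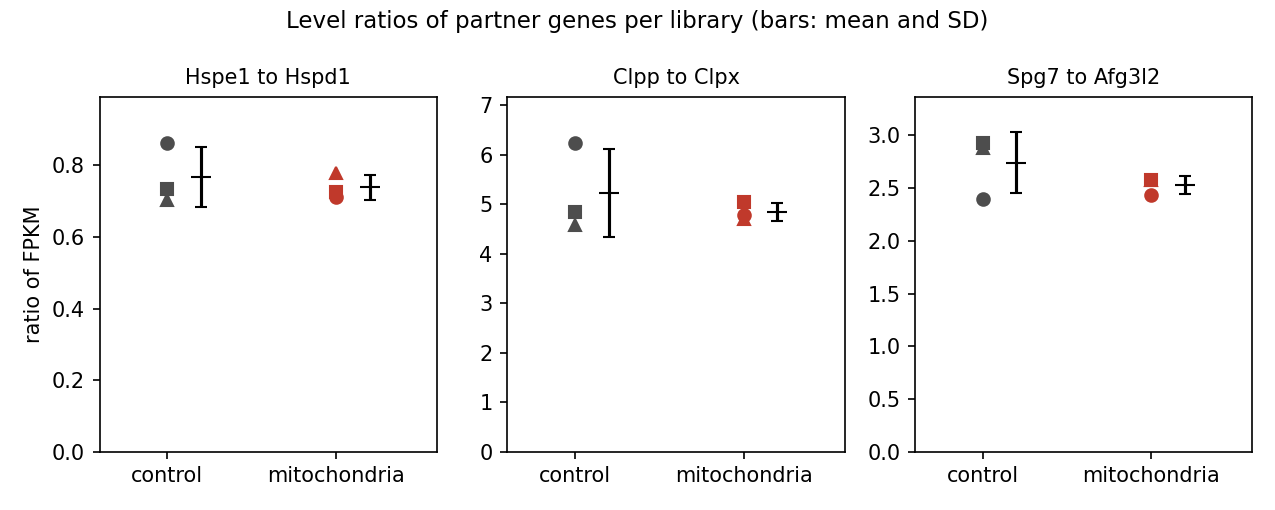
Ratio of FPKM in each library for the 3 pairs of partner genes, with axes that start at 0, a shape for each replicate number and bars for the mean and SD of 3 libraries. Control replicate 1, the grey circle, stands at 0.862, 6.24 and 2.40, away from the other controls in each pair.

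The other genes of mitochondrial protein upkeep also gave no call. Of 13 other mitochondrial chaperones, co-chaperones and scaffold proteins, all were tested, 0 passed the limma threshold and 0 had an unadjusted p under 0.05, with a median log2 change of −0.024. The smallest p was that of Dnlz, a zinc protein that assists Hspa9, at 11.8 ± 0.644 and 13.1 ± 0.599 FPKM (SD, n = 3, limma adjusted p = 0.396). The co-chaperones of Hspa9, Grpel1 and Dnaja3, had log2 changes of −0.088 and −0.078.

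Of 15 other mitochondrial proteases and peptidases 13 were tested and 0 passed, with a median log2 change of 0.045. An unadjusted p under 0.05 was reached by 3 of the 13, beside 13.9% of all genes. The groups did not overlap for 6 of the 13, 4 of them higher with mitochondria, beside 21.0% of all genes. Pitrm1, which degrades cleaved presequences, was at 33.6, 34.4 and 32.2 FPKM in the controls and at 39.0, 37.6 and 36.0 FPKM with mitochondria (log2 change 0.16, limma adjusted p = 0.246). Pmpca, a subunit of the peptidase that removes presequences, went the same way, from 32.8 ± 0.631 to 35.4 ± 1.22 FPKM (SD, n = 3, limma adjusted p = 0.394), whereas its partner Pmpcb overlapped between groups. Xpnpep3, an aminopeptidase, was at 5.83, 6.57 and 6.53 FPKM in the controls and at 2.36, 1.77 and 5.78 FPKM with mitochondria. Mitochondria replicate 3 stood near the controls while the other 2 were far lower, and the log2 change was −0.88 (SE 0.31, limma adjusted p = 0.280). Without mitochondria replicate 3 it was −1.26 with a limma adjusted p of 0.0256, and this was the single call in the 8 comparison lists among the 16 alternatives. Its adjusted p was 0.0256 to 0.564 over the 15 alternatives that tested it, since its mean was under the filter of 5 FPKM. Values of Pmpca, Pmpcb, Xpnpep3, Afg3l1, Grpel1 and Dnaja3 were chosen for mention with knowledge of them.

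The regulators of the mitochondrial stress response gave 0 calls among 12 tested genes, 2 at an unadjusted p under 0.05 and a median log2 change of −0.039. Atf5, the factor most closely tied to the mitochondrial unfolded protein response, was at 15.2, 14.1 and 14.9 FPKM in the controls and at 10.6, 12.9 and 11.7 FPKM with mitochondria. Every mitochondria library was lower, with a log2 change of −0.31 (SE 0.077, unadjusted p = 0.0054, limma adjusted p = 0.140), and the adjusted p was 0.130 to 0.362 in the other settings. Eif2ak4, a kinase of the integrated stress response, differed the other way, with 5.12 ± 0.291 and 5.94 ± 0.0943 FPKM (SD, n = 3, limma adjusted p = 0.251). Atf4 was at 66.2 ± 13.4 and 55.6 ± 7.46 FPKM and Ddit3 at 12.4 ± 3.32 and 10.1 ± 1.52 FPKM (SD, n = 3), with overlap in both. Eif2ak4, Atf4, Ddit3 and the Hspa1 genes below were likewise chosen with their values known.

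Chaperones of other compartments and the import machinery had 0 calls as well. The 11 tested cytosolic heat shock proteins had a median log2 change of −0.044, with Dnaja1 at 35.8, 33.4 and 33.9 FPKM in the controls and at 29.2, 29.7 and 28.9 FPKM with mitochondria (log2 change −0.22, limma adjusted p = 0.101). The stress-inducible Hspa1a and Hspa1b were at or below 0.292 FPKM in every library of both groups. The 8 subunits of the cytosolic chaperonin had a median of −0.018, with Cct5 at 165.5 ± 6.80 and 179 ± 4.83 FPKM (SD, n = 3, limma adjusted p = 0.423). The 14 chaperones of the endoplasmic reticulum had a median of −0.005, with Calr at 240.2 ± 32.1 and 209 ± 16.6 FPKM (SD, n = 3, limma adjusted p = 0.5). The 22 genes of the TIM and TOM import machinery had a median of −0.054, with Timm9 at 1.92 ± 0.0292 and 1.48 ± 0.0866 FPKM (SD, n = 3, limma adjusted p = 0.197). In the import list 17 of 22 log2 changes were negative, where the median over all genes tested was −0.006. There the groups did not overlap for 6 genes lower and 1 higher with mitochondria, beside 11.4% and 9.62% of all genes. An unadjusted p under 0.05 was reached by 0, 1 and 2 genes of the chaperonin, heat shock and import lists. It was reached by 0 of the endoplasmic reticulum list, beside 13.9% of all genes.

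Transcripts encoded by mitochondrial DNA, some of whose protein products these proteases degrade, also gave 0 calls among 13 genes, and 0 at an unadjusted p under 0.05. They had positive log2 changes in 12 of 13 genes and a median of 0.076, beside −0.006 over all genes tested. The gene of smallest p was mt-Nd2 at 1587 ± 52.5 and 1737 ± 65.6 FPKM (SD, n = 3, limma adjusted p = 0.394). The added mitochondria also came from mice, so these values do not separate their transcripts from those of the recipient cells. Their sum ranged from 27530 to 28770 FPKM in the controls and from 28180 to 31020 FPKM with mitochondria, with overlap. Across the 8 comparison lists together, 10 and 11 of 106 tested genes were higher and lower without overlap between the groups, beside 9.62% and 11.4% of all genes.

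**Figure D4:**
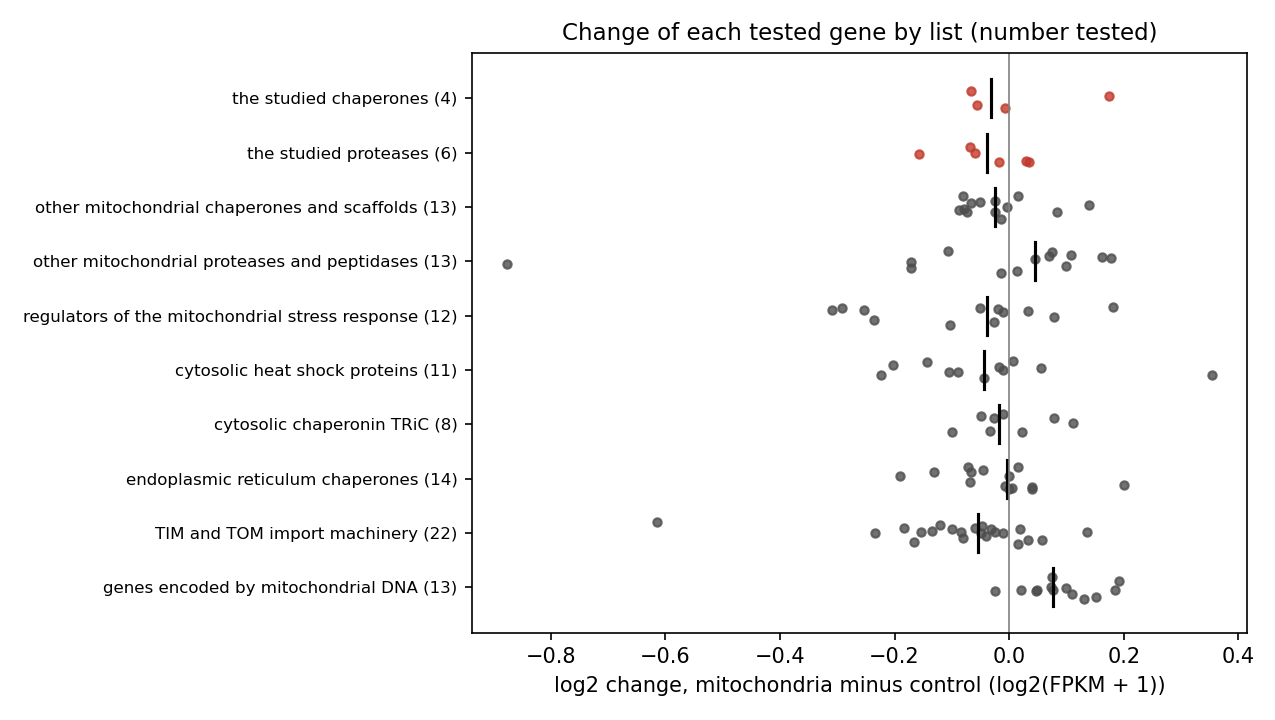
Log2 change of each tested gene, mitochondria less control in log2(FPKM + 1), by list, with the number tested in brackets and a line at each median. The studied chaperones and proteases, in red, lie within 0.2 of 0, and the point farthest to the left is Xpnpep3 at −0.88.

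The profiles of Hspd1 and Lonp1 over the 6 libraries were closest to those of genes outside the set. Likeness was the root mean square difference of log2 values, each gene centred on its own mean, among the 7817 tested genes that averaged 5 FPKM or more. The 5 genes nearest to Hspd1 were Tspyl2, Rnaset2a, Zfp706, Hps1 and Slc30a6, at 0.0083 to 0.0195 on the log2 scale. Hspe1, though it shares the start region, was not the nearest member, which was Hspa9 at 0.0764 and rank 1224. Among the genes nearest to Lonp1 were Srp68, Cyc1, Pltp and Rab2a, at 0.0104 to 0.0142, and the nearest member was again Hspa9, at 0.0422 and rank 305. With 6 libraries and small differences this likeness describes these libraries only.

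The libraries differed in depth, and most of the listed markers of their labelled cell type were low. The FPKM implied 17000000 to 21100000 fragments in the controls and 21800000 to 27200000 with mitochondria. These depths are estimates from the spacing of low values. At them the coding bases of the 10 genes held from about 210 fragments, for Afg3l2, to 3600, for Lonp1, a counting error of 6.8% or less per library. Of 12 endothelial markers 7 were under 1 FPKM in every library, Cdh5, Pecam1 and Cldn5 among them. The summed level of the 12 was 76.1 to 86.4 FPKM in the controls and 79.3 to 88.4 FPKM with mitochondria, most of it Eng. Of the 5 tested, 3 had positive and 2 had negative log2 changes, with a median of 0.095. Eng, Tie1 and Esam had log2 changes of 0.095, 0.105 and 0.133, with overlap between the groups. The receptors Flt1 and Kdr, 2 of the 5, were lower in every mitochondria library, beside 11.4% of all genes. Flt1 had means of 10.04 ± 0.932 and 7.75 ± 0.278 FPKM (SD, n = 3, limma adjusted p = 0.114) and Kdr of 3.94 ± 0.249 and 3.00 ± 0.262 FPKM (SD, n = 3, limma adjusted p = 0.143).

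Markers of the donor cell type were mixed. Of 12 astrocyte markers 2, Aqp4 and Sox9, were listed at 0 throughout and Gfap reached 0.198 FPKM at most. Their sum, mostly Gja1 and Glul, was 67.5 to 106 FPKM in the controls and 83.9 to 87.5 FPKM with mitochondria. Of the 5 tested, 2 had positive and 3 had negative log2 changes, with a median of −0.043. Without overlap between the groups 1 of the 5, Aldoc, was higher, beside 9.62% of all genes. Aldoc and the untested Aldh1l1 and Slc1a2 were higher in every mitochondria library. Fabp7 and Gfap had higher means with mitochondria, and Gja1, Glul, S100b, Slc1a3 and Atp1b2 had lower means, all with overlap. Aldoc had means of 14.1 ± 1.61 and 17.9 ± 2.28 FPKM (SD, n = 3, limma adjusted p = 0.268). Aldh1l1 was at 0.416, 0.455 and 0.302 FPKM in the controls and at 0.972, 1.154 and 1.059 FPKM with mitochondria, and Slc1a2 reached 0.169 FPKM at most. Neither of the last 2 passed the filter on low values.

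Of 12 fibroblast and mural markers 6 were tested, with 1 called and a median log2 change of 0.17. The highest were Col3a1 at 225 FPKM, Col1a1 at 111 FPKM and Pdgfrb at 55.8 FPKM, as means over the 6 libraries. The 6 others not tested were under 1 FPKM in every library. The called gene was Col1a1, a collagen gene, lower at 137.9 ± 2.45 and 83.9 ± 3.19 FPKM (SD, n = 3, limma adjusted p = 0.00547). Pdgfra, Acta2 and Des, 3 of the 6 tested, were higher in every mitochondria library, beside 9.62% of all genes, and none passed the threshold. Their means were 18.4 and 22.6, 1.64 and 2.18, and 4.98 and 6.65 FPKM in the same order of groups. Col3a1 and Pdgfrb overlapped between the groups. The sum of the 12, 431 to 465 FPKM in the controls and 382 to 419.9 FPKM with mitochondria, was lower with mitochondria, and Col1a1 had the largest difference in it. Of 8 microglia markers 7 were under 1 FPKM in every library, and the sum, nearly all Tmem119, was 224 to 272 and 182 to 208 FPKM. The 10 neuron and oligodendrocyte markers, of which 8 were under 1 FPKM, summed to 19.1 to 20.8 and 24.1 to 24.9 FPKM, nearly all Pdgfra. Markers outside the called gene or the gene of smallest p in a list were chosen for mention with their values known. The part of these markers in the values above was not tested. In bulk RNA, fewer cells of a type and less RNA per cell cannot be told apart.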

How the data were processed

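RNA was sequenced in 6 bEnd.3 libraries, 3 control and 3 given mitochondria. The authors deposited 1 value per gene and library, normalized before deposit and read here as FPKM from the values, since no header names a unit. The submitters' processing notes list STAR 2.5.3a, StringTie 1.3.1c and FastQC 0.11.5 with build GRCm38 (mm10), and give no settings. Of 55335 identifiers 55154 matched GENCODE M21, which gave symbols and positions.

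The 12639 genes that reached 1 FPKM in 3 or more libraries were tested. The test was limma 3.58.1 (R 4.3.3), fitted to log2(FPKM + 1) by group alone, with trended and robust empirical Bayes and Benjamini-Hochberg adjustment at 0.05. This scale understates changes of low genes. Depth was estimated from the spacing of low FPKM in genes with 1 transcript. Only 12.1% to 18.2% of these fell within 0.02 of whole multiples, and no count model was used. In 10 simulations of this comparison over 12639 genes, 66.6% of 1.5-fold and 23.6% of 1.25-fold changes were recovered. These folds were set on FPKM + 1, so in low genes they stand for larger folds of FPKM. Errors were drawn independently for each gene and library, and the shares are averages over genes of all levels.

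The members and lists were chosen with earlier results of these data known. The rule named all members, the called genes (or that of smallest p) of each list, and the 5 genes nearest to Hspd1 and to Lonp1. The text says where genes outside it are named. A gene that the rule takes is not reported here. Alternatives were other pseudocounts, filters and scalings (TMM, quantile, TPM, or without mitochondrial DNA genes), a plain variance model, a replicate block and leaving out each library.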

Additional observations from a re-analysis of the deposited data

How the results depend on the processing

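None of the 10 genes passed the limma threshold in any of 16 alternatives, where the smallest adjusted p was 0.112 (Trap1, quantile normalization), and 149 of 160 refitted changes kept their direction. Hspd1 changed sign with TMM scaling (0.004) and quantile normalization (0.024), and Lonp1 with quantile normalization (0.003). With a library left out, log2 changes ran from −0.073 to 0.046 for Hspd1, from −0.050 to 0.014 for Lonp1, from −0.180 to 0.082 for Hspe1 and from −0.022 to 0.109 for Htra2. The log2 ratio differences ran from −0.109 to 0.038 for Hspe1 to Hspd1 and from −0.183 to 0.040 for Clpp to Clpx. The number of genes changed, 141, was 13 with no filter, 56 with the replicate block and 15 to 84 with a library left out. The cause was not tested. The comparison lists had 0 calls, and 0 to 1 with a library left out. Deviations of same-numbered libraries correlated at 0.102, 0.046 and 0.30. The 0.30 of number 3 was the largest of all pairs, and number 3 against other numbers gave −0.203 to −0.132. Control replicate 2 correlated best with mitochondria replicate 1, at 0.123. The labels do not say what a shared number stands for, and these few pairs cannot settle it. The block changed no call of a member.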
